A study of Danio rerio with 3 samples.

Results

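The mpeg1 genes of zebrafish encode macrophage perforin, and the 3 gene identifiers that carry this name, ENSDARG00000043093, ENSDARG00000055290 and ENSDARG00000078569, were followed across the libraries of the study. They were taken by name out of 27882 gene identifiers measured, and no other identifier had the name. They were chosen by name and with their corrected reads, unique reads and RPKM in all libraries already known, the third as near absent, so every level and ratio of theirs is a description and none was tested. The study sequenced RNA of whole AB larvae, 3 days after fertilization, from 1 library in each of 3 groups. The control larvae were wild type, with no driver transgene named. The HRAS larvae carried Tg(fli1ep:GAL4FF)ubs3, which makes GAL4 from the fli1 promoter of endothelial cells, and in addition Tg(UAS:eGFP-HRASV12)io006, which places eGFP fused to the oncogenic HRASV12 under GAL4. The NICD larvae carried the same driver, joined to tg(UAS:NICD)kca3, which places the intracellular domain of Notch under GAL4. The effect of the driver alone therefore cannot be told apart from that of either transgene. The number of larvae pooled was not known here.

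Macrophage perforin is a membrane protein of phagocytes that belongs to the same family of pore-forming proteins as the perforin of cytotoxic lymphocytes and the late components of complement. It resides in vesicles that meet engulfed bacteria and is known from mammals and fish for a part in killing them. In zebrafish larvae the mpeg1 promoter is the usual driver of macrophage reporters, and copies of the gene are known to respond differently to bacterial infection. The name tables used here give all 3 identifiers the symbol MPEG1, and the 3 RefSeq genes mpeg1.1, mpeg1.2 and mpeg1.3 were paired with none of them, so the copies are called by identifier.

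Corrected reads totalled 26384466 for the control library, 41105619 for HRAS and 21944303 for NICD. Corrected reads are the authors' count per gene, which adds to the unique reads, those that matched 1 place, part of the non-unique reads, those that matched several. In each comparison a ratio was taken on corrected reads scaled with TMM factors after adding 0.5 reads to each library, and the bracketed range after a ratio is its exact conditional binomial 95% interval. With 1 library in each group there was no replicate check and no p-value, so each ratio compares libraries and not conditions, and intervals cover counting error only. A gene was past the size rule when both libraries together held at least 50 reads of it, its ratio was 2-fold or more in either direction and the interval excluded 1. RPKM, corrected reads relative to the length of the longest transcript and to the library total, is printed as deposited with exact Poisson 95% ranges and is the scale on which copies were compared with each other.

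On corrected reads both expressed copies were at about the same level in the control, and in the transgenic libraries their levels differed. ENSDARG00000043093 was highest in the NICD library and ENSDARG00000055290 was highest in the HRAS library. ENSDARG00000078569 had no unique read in any library. Of the 3 copies, 2 had enough reads for the size rule in each comparison.

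ENSDARG00000043093, which has 1 transcript of 2638 bases, was counted with 186 corrected reads in control larvae, 505 in HRAS larvae and 820 in NICD larvae. Its RPKM was 2.68 (2.31 to 3.09) for the control, 4.66 (4.26 to 5.08) for HRAS and 14.2 (13.2 to 15.2) for NICD. The order control, HRAS, NICD held with no overlap between these ranges. In the control 45.6% of all identifiers had a lower RPKM than this copy, against 57.2% in HRAS and 82.9% in NICD. Almost all of its reads belonged to it alone: unique reads numbered 186, 504 and 820 in the same order, so the values hardly depend on how shared reads were assigned.

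ENSDARG00000055290, which has 2 transcripts and a longest one of 2634 bases, was counted with 181 corrected reads in control larvae, 684 in HRAS larvae and 143 in NICD larvae. Its RPKM was 2.6 (2.24 to 3.01) for the control, 6.32 (5.85 to 6.81) for HRAS and 2.47 (2.08 to 2.91) for NICD. The HRAS library was above both others, whose ranges overlap. On the RPKM scale 45% of identifiers lay below this copy in control larvae, 64.6% in HRAS larvae and 42.9% in NICD larvae.

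**Figure D1:**
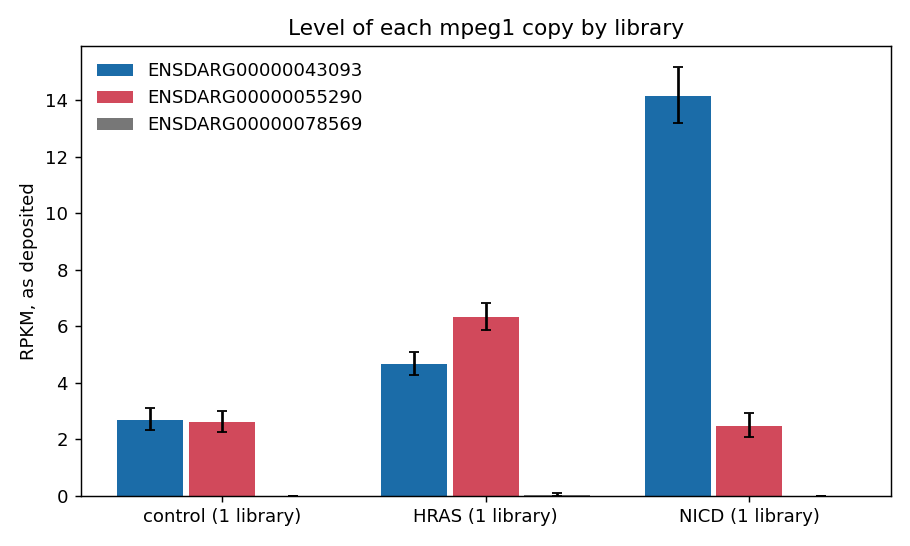
Level of each mpeg1 copy in RPKM as deposited (vertical axis), with 1 bar per copy and library and error bars for the exact Poisson 95% range of its reads. ENSDARG00000043093 reaches 14.2 in NICD, ENSDARG00000055290 reaches 6.32 in HRAS, and ENSDARG00000078569 has no visible bar.

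ENSDARG00000078569, with 2 transcripts and a longest one of 2007 bases, was counted with 0 corrected reads in control and NICD larvae and with 2 in HRAS larvae. The 2 reads in HRAS came from 6 non-unique ones, and its RPKM there was 0.024. A count of 0 allows up to 3 reads, which is 0.114 CPM (reads scaled to a common library total) for the control and 0.137 CPM for NICD, so expression below that level was not detectable at this depth. All 3 libraries lay under this limit, and no ratio was taken.

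The first comparison asked what the larvae with HRASV12 under the endothelial driver expressed differently from wild type. In the HRAS library ENSDARG00000055290 was 2.41-fold higher than in the control [2.04 to 2.86], and ENSDARG00000043093 was 1.73-fold higher [1.46 to 2.06]. The former was past the size rule and the latter was not, although its interval reaches above 2-fold, and the intervals of both ratios overlap by a little. Of the 2 copies with enough reads 1 was thus past the rule as higher, in a comparison in which 6.09% of 20873 genes were higher and 4.14% were lower. Among these genes 838, or 4.01%, had a ratio at least as high as that of ENSDARG00000055290, and 1866, or 8.94%, one at least as high as that of ENSDARG00000043093.

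The second comparison asked the same of the larvae with the intracellular domain of Notch. In the NICD library ENSDARG00000043093 was 5.23-fold higher than in the control [4.46 to 6.18], and 83 of 20061 genes, or 0.414%, had a ratio at least as high. ENSDARG00000055290 stood at 0.94 of its control level [0.749 to 1.18], an interval that includes 1. Of the 2 copies with enough reads 1 was past the rule as higher and 0 as lower, where 3.56% of all genes were higher and 3.12% were lower.

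The third comparison set both transgenic libraries, which share the driver, against each other. ENSDARG00000043093 stood in HRAS at 0.331 of its NICD level [0.295 to 0.37], and ENSDARG00000055290 was 2.56-fold higher in HRAS than in NICD [2.14 to 3.10]. The 2 copies with enough reads were therefore past the size rule in opposite directions, 1 higher and 1 lower, while 5.15% of 20856 genes were higher and 6.19% were lower in HRAS than in NICD. A ratio at least as low as that of the former was found in 344 genes, or 1.65%, and one at least as high as that of the latter in 585 genes, or 2.8%.

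**Figure D2:**
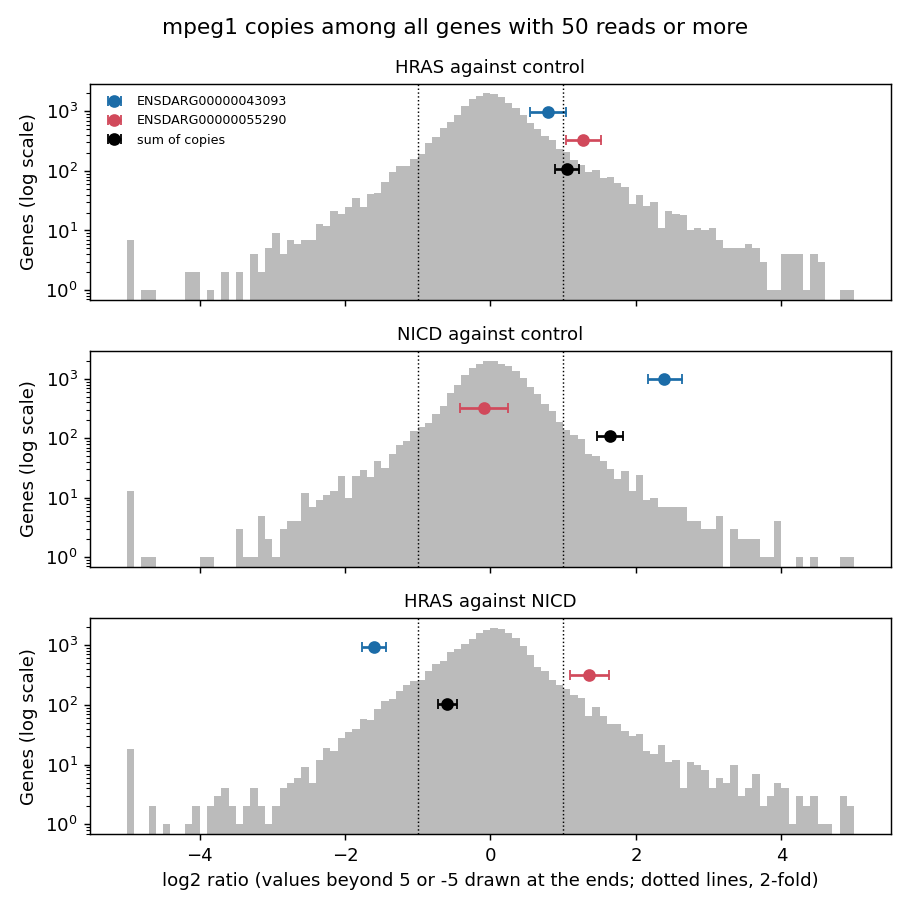
Log2 ratio of each expressed mpeg1 copy and of the sum of the copies (points with 95% counting intervals, set at arbitrary heights) over the histogram of all genes that met the 50-read minimum, in each comparison; the vertical axis counts genes on a log scale and dotted lines mark 2-fold. ENSDARG00000043093 lies far to the right in NICD against control, at 2.39, and both copies lie on opposite sides in HRAS against NICD, at -1.6 and 1.36.

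Summed over the copies, mpeg1 was higher in both transgenic libraries than in the control. The sum does not depend on how reads were divided between copies, but it does depend on how non-unique reads were counted. It was 367 corrected reads for the control, 1191 for HRAS and 963 for NICD, or 14.0 CPM (12.6 to 15.5), 29.0 CPM (27.4 to 30.7) and 43.6 CPM (40.9 to 46.5) after scaling. The order control, HRAS, NICD held with no overlap of these ranges. The sum was 2.07-fold higher in HRAS than in the control [1.84 to 2.33] and 3.12-fold higher in NICD [2.76 to 3.53], and stood in HRAS at 0.664 of its NICD level [0.609 to 0.723]. On unique reads alone the first of these was 1.87-fold [1.64 to 2.13], below the 2-fold limit, and the last was 0.561 [0.512 to 0.616]. In RNA of whole larvae, a changed number of macrophages and a changed amount of mpeg1 RNA in each cannot be told apart.

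Within a library the split of reads between the copies needs no scaling between libraries. ENSDARG00000043093 gave 50.7% of the corrected mpeg1 reads of the control (exact Clopper-Pearson 95% interval 45.4 to 55.9), 42.4% in HRAS (39.6 to 45.3) and 85.2% in NICD (82.7 to 87.3). ENSDARG00000055290 gave 49.3%, 57.4% and 14.9% in the same order. The intervals of all 3 libraries are separate, though those of control and HRAS only just. Per base of the longest transcript, ENSDARG00000043093 was at 1.03 times the level of ENSDARG00000055290 in the control, 0.737 times in HRAS and 5.73 times in NICD.

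Unique reads gave a like picture for NICD and a different one for control and HRAS. On unique reads ENSDARG00000043093 held 58.1% (52.5 to 63.6) in the control, 54.2% (50.9 to 57.4) in HRAS and 91.0% (89.0 to 92.8) in NICD. In the control ENSDARG00000043093 was then at 1.39 times the level of ENSDARG00000055290 per base, against 1.03 times on corrected reads. The intervals of control and HRAS overlap on unique reads, while the NICD library stayed apart from both. In HRAS the level of ENSDARG00000043093 relative to ENSDARG00000055290 per base turned from 0.737 on corrected reads to 1.18 on unique reads. Unique reads leave out the non-unique reads of ENSDARG00000055290, whereas ENSDARG00000043093 had almost none. They therefore count ENSDARG00000055290 low relative to ENSDARG00000043093, and the turn does not show which copy was the more abundant.

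**Figure D3:**
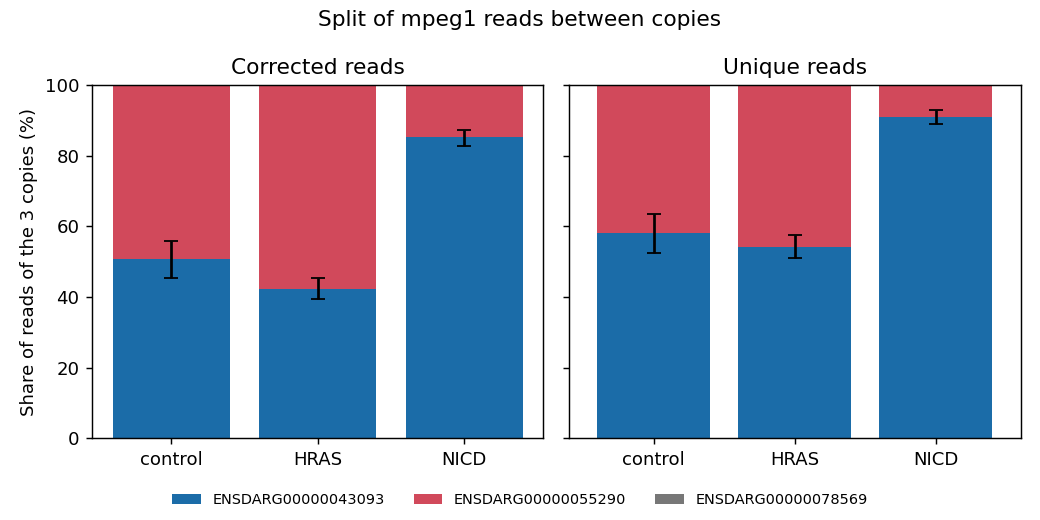
Share of each mpeg1 copy in the reads of all 3 copies (percent, vertical axis) in each library, on corrected reads at left and unique reads at right; error bars are exact Clopper-Pearson 95% intervals of the share of ENSDARG00000043093. That share is 85.2% of corrected and 91.0% of unique reads in NICD, above the other libraries in both panels, whereas in HRAS it is 42.4% of corrected and 54.2% of unique reads.

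The difference between the counts lies in the shared reads of ENSDARG00000055290. Its unique reads numbered 134, 426 and 81 in control, HRAS and NICD, which is 74.0% (67.0 to 80.3), 62.3% (58.5 to 65.9) and 56.6% (48.1 to 64.9) of its corrected reads. The remaining 47, 258 and 62 reads were assigned from 94, 512 and 122 non-unique ones, a share of 50%, 50.4% and 50.8%. The median share assigned was 50% in each library over all genes with 2 transcripts and at least 50 non-unique reads, against 11% to 12.3% over those with 1 transcript. In the same order ENSDARG00000043093 had only 5, 9 and 4 non-unique reads, and ENSDARG00000078569 had 0, 6 and 0. Few of the non-unique reads of ENSDARG00000055290 can therefore have been shared with another mpeg1 copy. The files do not say which genes or transcripts the rest of them matched.

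Counted separately, unique and assigned reads of ENSDARG00000055290 gave ratios of different size. Against the control, its unique reads in HRAS larvae were 2.04-fold higher [1.68 to 2.5], and in NICD they stood at 0.717 [0.536 to 0.949]. Its assigned reads were 3.47-fold higher in HRAS [2.56 to 4.89] and 1.56-fold higher in NICD [1.06 to 2.34]. The NICD ratio of this copy thus lay below 1 on unique reads and above 1 on assigned reads, and the value of 0.94 on corrected reads combines both. For ENSDARG00000043093 unique reads gave 1.74-fold in HRAS [1.47 to 2.07] and 5.20-fold in NICD [4.44 to 6.15], almost the values on corrected reads.

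Other genes of macrophages were set beside the copies, with both transgenic libraries read against the same control library. Of the macrophage and microglia list 35 identifiers were found, without mpeg1. In HRAS against control 11 of 27 measured, or 40.7%, were higher and 0 lower, beside 6.09% and 4.14% of all genes, with a median log2 ratio of 0.82 beside 0.00 over all genes. In NICD against control 1 of 24 was higher and 1 lower, or 4.17% each, close to the 3.56% and 3.12% of all genes, with a median of 0.17 beside 0.03. In HRAS against NICD 11 of 27, or 40.7%, were higher and 1, or 3.7%, was lower, beside 5.15% and 6.19% of all genes, with a median of 0.52 beside 0.01. Summed over the list the level was 256 CPM for the control, 431 CPM for HRAS and 268 CPM for NICD, and 0, 1 and 2 of the 35 identifiers were at 0 reads.

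The ratios of ENSDARG00000055290 lay within the range of this list, and the NICD ratio of ENSDARG00000043093 lay above it. Of the 24 macrophage identifiers measured in all comparisons, 6 were at least as high in HRAS against control as ENSDARG00000055290, and 0 were at least as high in NICD against control as ENSDARG00000043093. The mannose receptor gene mrc1b, which macrophages share with scavenger endothelium in zebrafish, had 349, 2677 and 202 reads in control, HRAS and NICD, a ratio of 4.89 in HRAS [4.38 to 5.49] and of 0.689 in NICD [0.576 to 0.821]. The scavenger receptor gene marco, a macrophage marker, had 59, 331 and 72 reads, a ratio of 3.56 in HRAS [2.71 to 4.81] and of 1.45 in NICD [1.01 to 2.08]. Both were past the size rule in HRAS and not in NICD, as was SPI1, a myeloid transcription factor gene, with 93, 434 and 74 reads, of which 1, 5 and 0 were unique. These 3 were among the 11 members past the rule as higher in HRAS. Some other members of the list were past the rule in neither, among them csf1rb and IRF8. Of these csf1rb, with 77, 94 and 75 reads, had ratios of 0.778 in HRAS [0.57 to 1.07] and 1.16 in NICD [0.831 to 1.61]. IRF8, with 52, 159 and 81 reads, had 1.94 [1.42 to 2.72] and 1.85 [1.29 to 2.68].

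ACOD1, whose enzyme makes itaconate in activated macrophages, was the only other macrophage gene past the size rule as higher in NICD. It was counted with 52, 61 and 130 reads in control, HRAS and NICD, a ratio of 2.96 in NICD [2.14 to 4.18] and of 0.748 in HRAS [0.509 to 1.11]. It was also the only member lower in HRAS than in NICD, at 0.253 [0.183 to 0.344]. Its unique reads were few, at 11, 19 and 30. They did not reach the minimum of 50 reads in any comparison, so the rule could not be applied to them. The lower member in NICD was ENSDARG00000089667, 1 of 6 identifiers that carry MFAP4, the name of a macrophage marker of zebrafish. It had 81, 119 and 27 reads and a ratio of 0.401 [0.246 to 0.619]. Only 17, 22 and 5 of its reads were unique, too few for the minimum. The other MFAP4 identifiers measured in NICD against control had ratios from 0.65 to 1.17, none past the rule. The 4 other MFAP4 identifiers measured in HRAS against control spanned folds from 1.5 [1.3 to 1.74] to 7.45 [3.05 to 31.6]. The highest rested on 4 reads in the control and 52 in HRAS. The next highest was 3.91 [2.97 to 5.33], so identifiers of 1 name gave unequal ratios there too. The lysosomal gene cd68, with 1345, 2708 and 1487 reads, had a ratio of 1.28 in HRAS [1.2 to 1.37] and 1.31 in NICD [1.22 to 1.42] and was past the rule in neither.

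**Figure D4:**
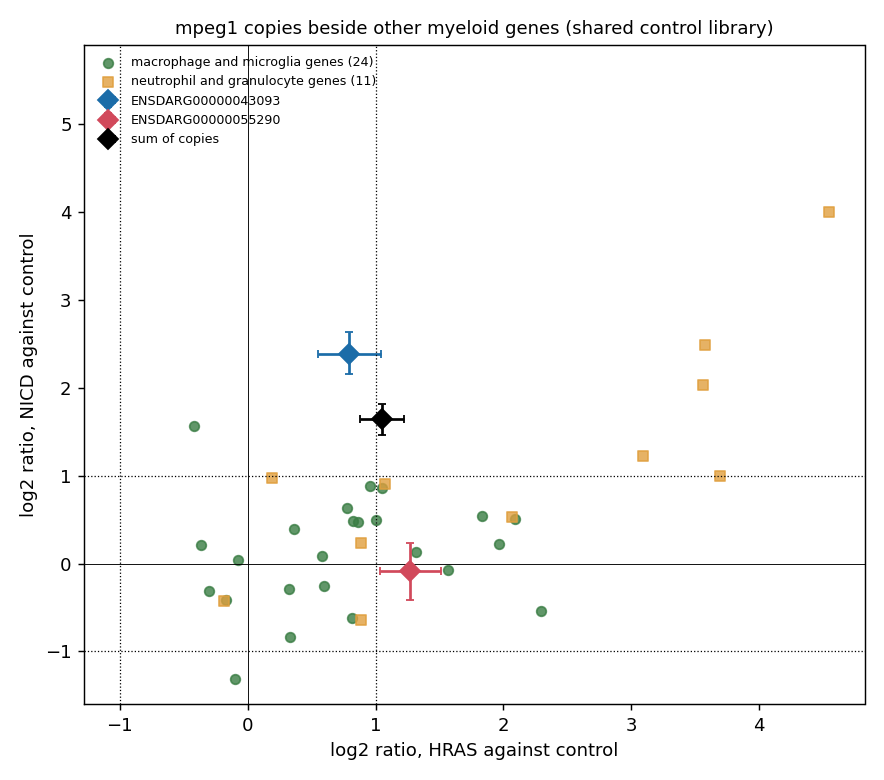
Log2 ratio in NICD against control (vertical axis) and HRAS against control (horizontal axis) of the mpeg1 copies and their sum (diamonds with 95% counting intervals), of 24 macrophage and microglia genes (circles) and of 11 neutrophil and granulocyte genes (squares); dotted lines mark 2-fold, and both axes use the same control library. ENSDARG00000055290 lies among the macrophage genes, whereas ENSDARG00000043093, at 0.79 and 2.39, lies above all 24 of them on the vertical axis.

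Neutrophils and other leukocytes could also contribute to whole-larva RNA. Over all genes 6.09% were higher in HRAS and 3.56% in NICD than in the control, and the shares of the lists stand beside these. Of the neutrophil and granulocyte list 9 of 13 measured members (69.2%) were higher in HRAS and 4 of 11 (36.4%) in NICD, with none lower. The summed level was 206 CPM for the control, 673 CPM for HRAS and 329 CPM for NICD. Few genes made up much of this sum. Of its 5414, 27658 and 7266 reads, s100a10b gave 2396, 6946 and 2372, and MMP9 gave 338, 6267 and 1164. The highest measured member of the list by ratio in both was ITLN1, ENSDARG00000095082, an intelectin gene, with 9, 347 and 127 reads. Another identifier of that name, itln1, ENSDARG00000007534, had 7, 137 and 4 reads. It had a ratio of 11.7 in HRAS and was under the minimum of reads in NICD against control. Not all members moved alike. The lysozyme gene lyz, with 912, 1629 and 1511 reads, had ratios of 1.14 in HRAS and 1.97 in NICD, and stood in HRAS at 0.579 of its NICD level. LECT2, ENSDARG00000033227, had ratios of 0.88 and 0.747. Neither was past the rule. In the pan-leukocyte and NADPH oxidase list 7 of 20 (35%) were higher in HRAS and 2 of 20 (10%) in NICD. The 2 in NICD were NCKAP1L, with 89, 546 and 169 reads, and cybb, with 186, 564 and 317 reads. Of the cybb reads only 3, 12 and 6 were unique, and its NICD ratio was 2.02. Of the interferon and inflammation list 12 of 23 (52.2%) were higher in HRAS and 6 of 21 (28.6%) in NICD, with none lower. The summed level of that list was 256 CPM for the control, 423 CPM for HRAS and 349 CPM for NICD, and the chemokine gene cxcl18b had 36, 303 and 112 reads. Like the sum of the mpeg1 copies, these summed levels were higher in both transgenic libraries than in the control. The order of the transgenic libraries was the reverse: these lists were highest in HRAS, and the mpeg1 sum in NICD (43.6 CPM beside 29.0 CPM in HRAS). The part of these cells in the mpeg1 ratios was not tested.

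Of the lymphoid and cytotoxic list, 9 members were measured against the control, too few to read a direction from. Of these 1 was higher and 2 were lower in HRAS, and 2 were higher and 1 lower in NICD, where over all genes 6.09% and 4.14% were higher and lower in HRAS and 3.56% and 3.12% in NICD. Of the 20 identifiers 6 were at 0 reads in each library. Of the endothelial list, the cells in which the driver is active, 16 of 20 (80%) were higher and 1 (5%) lower in HRAS, while 0 of 20 were higher and 2 (10%) were lower in NICD, beside the same shares of all genes.

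The list of the membrane attack complex and perforin family, to which mpeg1 belongs, gave calls near the share of all genes. Of 17 identifiers found, 12 were measured, and 1 was higher and 1 lower in HRAS, or 8.33% each beside 6.09% and 4.14%, with a median log2 ratio of -0.02 beside 0.00. In NICD 0 of 12 were past the rule in either direction, beside 3.56% and 3.12%, with a median of 0.25 beside 0.03. The complement gene c7a had 581, 1931 and 727 reads, with a ratio of 2.12 in HRAS [1.93 to 2.33]. The neural gene BRINP1 had 252, 189 and 330 reads, with a ratio of 0.479 [0.394 to 0.58]. Complement c9 was the most abundant relative, at 101 RPKM for the control, 169 RPKM for HRAS and 123 RPKM for NICD, with ratios of 1.67 and 1.21 to the control. The other complement genes c7b, c8a and c8b had ratios between 1.1 and 1.72 in HRAS and between 0.896 and 1.75 in NICD. The list as counted also holds c8g, a complement subunit that is a lipocalin and not a relative of mpeg1, with ratios of 0.713 and 0.644, not past the rule.

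Of the true perforin genes, only prf1.5 reached the minimum of reads. It was counted with 81, 145 and 36 reads in control, HRAS and NICD, a ratio of 1.14 in HRAS [0.865 to 1.52] and of 0.532 in NICD [0.347 to 0.792], and was 2.14-fold higher in HRAS than in NICD [1.49 to 3.21]. The perforin genes prf1.1, prf1.2, prf1.3, prf1.6 and prf1.9 had at most 14 reads in any library. The neural family members ASTN1, brinp2, BRINP3 and brinp3a.1 had ratios between 0.526 and 0.878 in HRAS and between 0.968 and 1.43 in NICD, none past the rule against the control, and ASTN1 was lower in HRAS than in NICD, at 0.368 [0.338 to 0.401], as was BRINP1.

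The genes most like each copy were ranked by the distance between their log2 ratios to the control in HRAS and in NICD, over 3 libraries and all other genes with a symbol and at least 100 corrected reads. Nearest to ENSDARG00000043093 were si:dkey-18c8.3, zgc:174917, pnp4b, SLC45A3, LACC1, si:ch73-308m11.1, si:dkey-172k15.6 and zgc:172065, at distances from 0.268 to 0.489. Of these zgc:174917 had only unique reads, at 100, 328 and 413, and LACC1, known in mammals as a macrophage enzyme of inflammation, had 41, 96 and 157 reads. The reads of si:dkey-18c8.3 and pnp4b were almost all non-unique.

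Nearest to ENSDARG00000055290 were FLI1, grapa, pecam1a, chia.6, si:dkey-222h21.6, lrrc15, RSPH9 and hs1bp3, at distances from 0.052 to 0.109. The counting intervals of this copy's own log2 ratios are wider, 1.032 to 1.515 in HRAS and -0.417 to 0.234 in NICD. On unique reads the log2 ratios of the copy were 1.03 and -0.48, so which genes lie nearest is not resolved. The gene chia.6 had no unique read in any library. FLI1, the endothelial transcription factor gene whose promoter belongs to the driver, had 1099, 4216 and 897 reads, mostly non-unique. The adhesion gene pecam1a, known from endothelium and blood cells, had 432, 1578 and 356 reads, all unique. Genes lie more densely around the ratios of ENSDARG00000055290 than around those of ENSDARG00000043093, so the distances are not comparable between the copies.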

How the data were processed

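The authors deposited, for each library, unique and non-unique read counts, corrected total reads, which are whole-number expected counts, and RPKM, as named in the file headers. Deposited RPKM, converted back to reads, differed from corrected reads by at most 0.673 reads in genes under 5000 reads. Assignment was by CLC bio Assembly Cell 3.2 to Ensembl release 63 transcripts of Zv9, per the series' design text, and the submitters' processing notes list CASAVA 1.8. How reads were mapped, and whether by strand, is not given. Unique reads were 50.3% to 51.0% of corrected reads.

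TMM factors (edgeR 4.0.16, R 4.3.3) were 0.994, 1.00 and 1.01 for control, HRAS and NICD, and intervals used scipy 1.17.1. Reads carry no molecular identifiers and so are not independent molecules; intervals and floors cover counting error only. Alternatives were library totals, DESeq2 1.42.0 size factors, upper quartile, totals without the 20 most abundant genes, RPKM, unique reads, 5 reads added, thinning, and other minimums and fold limits.

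The copies and the 7 gene lists were chosen with earlier results of these data known. Lists were matched by symbol (151 of 244 symbols, of which capital names do not tell paralogs apart), counting each identifier. Named genes are the copies, members of the perforin family with at least 50 reads and the 8 nearest genes to each expressed copy. Up to 3 highest and 3 lowest list members past the size rule were also eligible, of which not all are described. The genes marco, SPI1, cd68, csf1rb, IRF8, lyz, LECT2, s100a10b and itln1 were singled out after their values were seen. So were the perforin genes under the minimum and the summed values. No genome or sequence was used here.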

Additional observations from a re-analysis of the deposited data

Results flagged for a closer look

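Among the genes of the lists, 2 endothelial genes were past the size rule in opposite directions in both transgenic libraries, and the difference was not tested. The scavenger receptor gene stab2 had log2 ratios to the control of 1.88 (HRAS) and -2.55 (NICD). The hyaluronan receptor gene lyve1b had log2 ratios of 1.5 and -1.84.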

How the results depend on the processing

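Of 72 recomputed log2 ratios of the copies and their sum, 69 stayed within the counting interval of the reported value, and all kept their sign. The 3 others came with unique reads only: ENSDARG00000055290 moved from 1.27 to 1.03 in HRAS against control and from -0.09 to -0.48 in NICD against control, and the sum from -0.59 to -0.83 in HRAS against NICD. The sum in HRAS against control ranged from 0.90 to 1.06, across the 2-fold limit. Unique reads moved the share of ENSDARG00000043093 to 58.1%, 54.2% and 91.0% in control, HRAS and NICD, and that of ENSDARG00000055290 to 41.9%, 45.8% and 8.99%.

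Higher and lower genes over all genes followed the limits set. In HRAS against control they numbered 1933 and 1550 with no minimum, 669 and 452 with a minimum of 200 reads, 2709 and 2274 at 1.5-fold, and 291 and 134 at 4-fold, and 1346 were lower with a minimum of 10. In NICD against control they numbered 1457 and 1139 with no minimum, 1293 and 1060 with 10, 258 and 289 with 200, 2133 and 1577 at 1.5-fold, and 132 and 116 at 4-fold. In HRAS against NICD they numbered 1655 and 2095 with no minimum, 521 and 700 with 200, 2310 and 2957 at 1.5-fold, and 237 and 152 at 4-fold, and 1629 were higher with 10.

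On unique reads 7 macrophage genes were higher in HRAS against control, where 1006 of all genes were higher. In NICD against control 0 were higher and 0 lower, beside 527 and 485 of all genes. In HRAS against NICD 0 were lower, beside 1026 of all genes. The macrophage genes that dropped out of these counts, among them SPI1, cxcr3.2 and ACOD1, had too few unique reads for the minimum of 50. With a minimum of 200 reads 0 macrophage genes were higher and 0 lower in NICD against control, beside 258 and 289 of all genes. In HRAS against NICD 7 were higher and 0 lower, beside 521 and 700 of all genes. Over all lists 6 were higher and 1 lower in NICD against control, and 4 were lower in HRAS against NICD. How many genes met the minimum at these settings is not given, so these counts are not shares. No paired analysis was possible because each group has 1 library. Depth limits the third copy, whose reads lay under the floor of 3 in every library.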
